A study of Homo sapiens with 2 samples.

Results

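The genes described here are the protein-coding genes at the distal end of the short arm of human chromosome 8, from ZNF596 to POLR3D in the gene order of the RefSeq annotation of GRCh38.p14. A further 2 genes of this interval are left out by the rule and are not reported. The rule gives 151 genes. Of these, 80 had a probe set that the annotation assigns to a single gene, out of 19774 such genes on the array, 50 were measured, 30 stayed under the detection floor on both arrays, and 71 were not analysed here. The segment was selected on the ratios of these same 2 arrays, which earlier results showed to be low along it, so its shift is given as a description and nothing is tested on it.

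The RNA came from KYSE-140, an established human cell line of squamous carcinoma of the esophagus. Flow cytometry separated it into cells that carry CD90 (CD90+), a surface glycoprotein encoded by THY1, and cells that do not (CD90-). Both fractions came from the same line, no drug or genetic change is named for either, and each was read on 1 Affymetrix U133 Plus 2.0 array. Values are MAS5 signals, the output of an Affymetrix algorithm that condenses the probes of a probe set into a single linear intensity. With 1 sort per fraction no value has a replicate error and no test between the fractions was possible.

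The distal short arm of chromosome 8 is a region that many carcinomas lose, and TUSC3, DLC1, MTUS1 and LZTS1 on it have been studied as candidate tumour suppressors. Its genes share a place and not a pathway. Among them are RNA-processing subunits, lysosomal enzymes, telomere proteins, GTPase regulators and clusters of defensins, the small antimicrobial peptides of epithelia and leukocytes. The arrays read RNA, and DNA of these fractions was not analysed here.

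The arrays were alike in scale, with median signals of 72.1 in CD90+ and 71.1 in CD90- cells. A floor of 71.6, the median signal over both arrays, was set, and 12466 genes reached it on at least 1 array. Their median log2 ratio, CD90+ over CD90-, was 0.01. THY1 read 293 in CD90+ and 78.9 in CD90- cells, 3.72-fold higher, as the sort was labelled. Of the squamous epithelial markers 9 of 12 had a probe set and all 9 were measured, with summed signals of 91398 and 95272. The fibroblast, leukocyte and endothelial lists had 1 of 7, 0 of 4 and 1 of 5 genes with a probe set at the floor, PDGFRA (107 on each array) and PECAM1 (98.5 against 70.9). COL1A2, COL3A1, DCN, PTPRC and CDH5 were under the floor on both. Summed signals of these lists were 286 against 236, 43.1 against 109 and 174 against 115, and their part in the results was not tested.

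Most measured genes of the segment had a slightly lower signal in CD90+ cells. The median log2 ratio of the 50 measured members was -0.27, a 1.21-fold difference, against 0.01 over all measured genes. Ratios ran from -1.07 for XKR6 to 0.58 for GATA4. Of the 50, 39 had a ratio below 0, against a background of 48.8% of all measured genes. At least 1.5-fold lower were 15 (30%), where 6.76% of all measured genes were, and 0 were at least 1.5-fold higher, where 7.37% were. A single member, XKR6, was at least 2-fold lower, against 1.75% of all measured genes, and 0 were at least 2-fold higher, against 2.47%. In RNA of sorted populations, fewer cells with a transcript and less of it per cell cannot be told apart.

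The floor itself shaped a few of these values. DEFB1, FAM167A, FGL1, CSGALNACT1 and FGF17 reached it in CD90- cells alone, and CSMD1 in CD90+ cells alone, so those 6 had to differ to be measured in that way and their folds are lower bounds. Over the 44 members that reached the floor on each array the median was again -0.27, with 34 below 0 (against 49.0% of genes so measured) and 13 at least 1.5-fold lower (29.5%, against 6.34%). Among the 33 members with a mean signal at least 4 times the floor, 27 were below 0 and 10 at least 1.5-fold lower, against 48.8% and 5.19% of the 8672 genes that bright. Their median was -0.27, against 0.01.

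**Figure D1:**
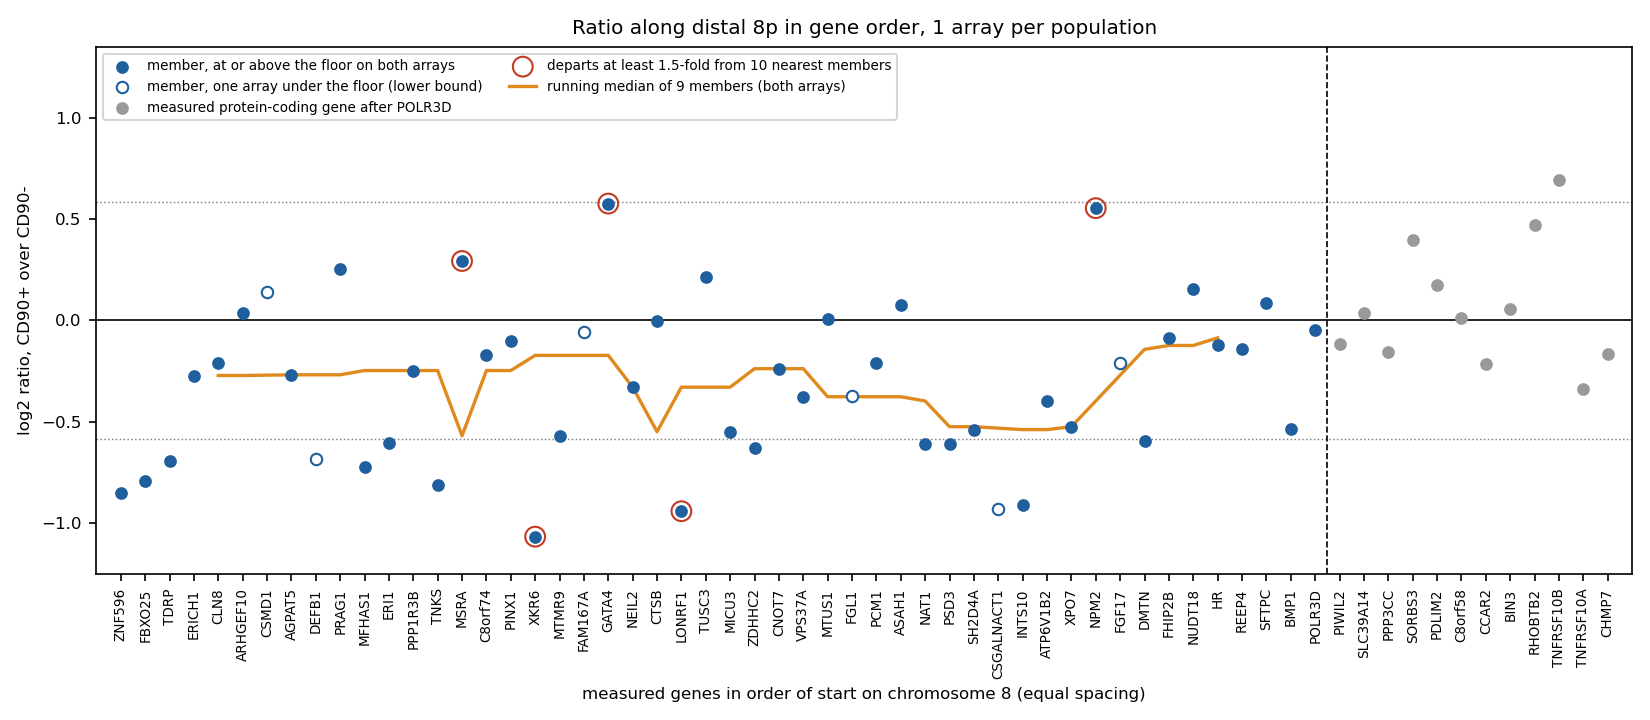
Log2 ratio of each measured member and of the next 12 measured protein-coding genes, in gene order with equal spacing. The running median stays between -0.57 and -0.09 along the segment and nears 0 at its inner end, and 5 ringed members depart from their neighbours.

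Along the chromosome the low ratios were uneven. The running median of 9 consecutive members measured on both arrays was below 0 at all 36 positions, and -0.09 at the last, around HR. Its lowest value, -0.57 around MSRA, was a single position, with -0.25 on either side. It stayed low for longer from PSD3 to XPO7, at -0.54 to -0.52. At the telomeric end ZNF596, a zinc finger protein, read 84.6 in CD90+ and 153 in CD90- cells. FBXO25, a substrate receptor of a ubiquitin ligase, read 505 against 876. TDRP read 815 against 1317. These first 3 members were all 1.62-fold to 1.81-fold lower. The next 7 measured members, ERICH1 to PRAG1, had a median of -0.21, and 3 of them were at or above 0.

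A run of lower genes lay further in, from NAT1 to XPO7, a stretch picked out after its values were seen. All 7 measured genes there were lower on the probe sets that stand for them, with log2 ratios from -0.93 to -0.40 and a median of -0.61. The lowest, CSGALNACT1, is a lower bound. The dim probe sets of INTS10 were only at -0.15 to -0.06, the -0.06 being a lower bound as well. For XPO7 the other measured probe sets were at -0.55 and 0.09. From FHIP2B to POLR3D, also picked out afterwards, the 7 measured members had a median of -0.09, and BMP1 was the one far from 0, at -0.53. Past the border the ratios lay on both sides of 0. PIWIL2 read 95.1 against 103, SLC39A14 5470 against 5340, PPP3CC 400 against 444 and C8orf58 210 against 209. SORBS3 (339 against 258) and PDLIM2 (386 against 342) were slightly higher in CD90+ cells. The first 12 measured genes past POLR3D had a median of 0.02. Of these 12, the death receptor gene TNFRSF10B was the 1 beyond 1.5-fold, at 1.61-fold higher (1722 against 1066), and its relative TNFRSF10A had a log2 ratio of -0.34.

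By landmark genes, the stretch before PRAG1 had a median of -0.27 (9 measured members), PRAG1 to CTSB -0.21 (14), the genes after CTSB to NAT2 -0.37 (11) and PSD3 to POLR3D -0.30 (16). At least 1.5-fold lower were 4, 4, 3 and 4 members. Each stretch also held 2 or 3 members at or above 0. On the rest of the short arm the median of 99 measured genes was 0.04, and 6 of them (6.06%) were at least 1.5-fold lower. On the long arm it was 0.04 over 279 genes. The difference between the segment and other chromosomes, -0.28 between medians, could not be tested with 1 array per fraction. Low values were not limited to chromosome 8: chromosome 2 had a median of -0.27 over 837 genes and chromosome 18 of -0.24 over 184, while the highest chromosome median was 0.14, on chromosome 11.

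**Figure D2:**
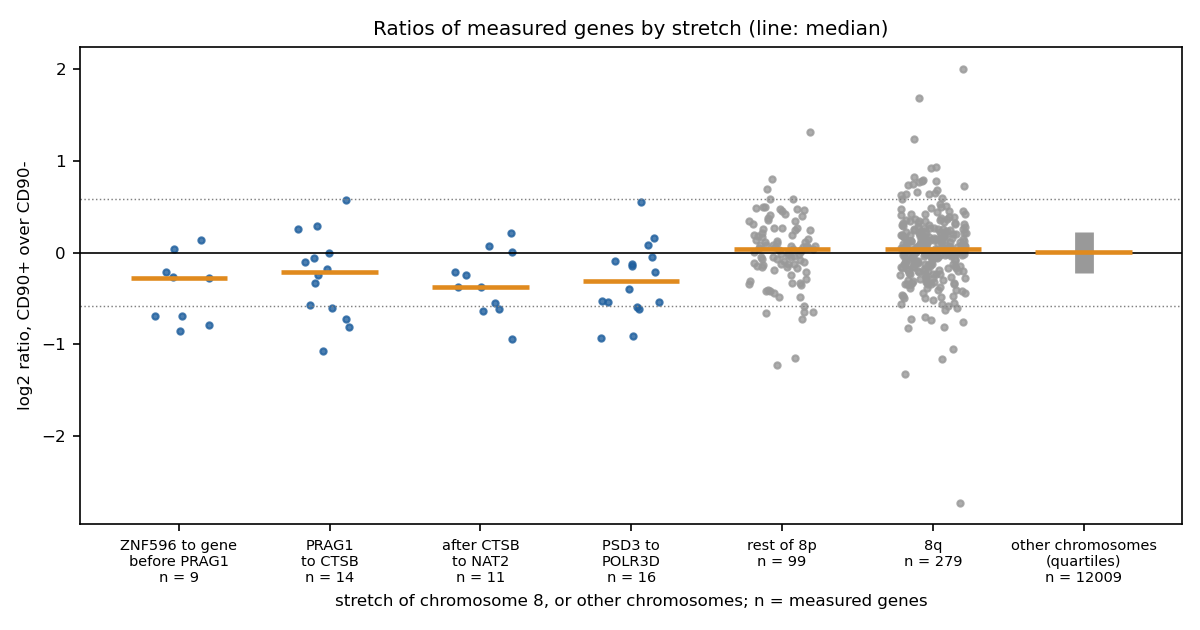
Log2 ratios of measured genes in 4 stretches of distal 8p (blue), on the rest of 8p and on 8q (grey), with the quartiles of all other chromosomes as a bar and medians as orange lines. The 4 blue medians lie between -0.37 and -0.21, and the 3 others at 0.01 to 0.04.

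Genes of RNA processing and export were lower in all 5 measured cases, with a median of -0.52, and 2 (40%) were at least 1.5-fold lower. For this and each role list below, the measured segment had 78% below 0 and 30% at least 1.5-fold lower. Over all measured genes these shares were 48.8% and 6.76%. INTS10, a subunit of the Integrator complex that cleaves small nuclear and nascent transcripts, read 919 in CD90+ and 1731 in CD90- cells, 1.88-fold lower. ERI1, an exonuclease that trims histone mRNA and ribosomal RNA ends, read 641 against 974, 1.52-fold lower. The exportin XPO7 read 1276 against 1835, a log2 ratio of -0.52. CNOT7, a deadenylase of the CCR4-NOT complex that shortens poly(A) tails, read 7979 against 9410. POLR3D, a subunit of RNA polymerase III, read 315 against 325 at the inner end of the segment. INTS10 rested on its bright probe set, since its 3 dim ones had log2 ratios of only -0.15 to -0.06. Of these the -0.06 is a lower bound, with CD90+ cells under the floor (62.8 against 74.7).

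Telomere, repair and chromatin genes went both ways. TNKS, or tankyrase, a poly-ADP-ribosyltransferase that acts at telomeres and on axin, read 634 against 1114, 1.76-fold lower and the 1 of these 6 beyond 1.5-fold. NEIL2, a glycosylase of base excision repair, read 333 against 418. PINX1, a telomerase inhibitor, read 442 against 473. ERICH1, counted among the 6 only by its place on the list and with its role not tested, read 1180 against 1424. NUDT18, which hydrolyses oxidised nucleotides, read 180 against 161 and NPM2, a histone chaperone known from oocytes, 148 against 101, both on the higher side. The median of the 6 was -0.19.

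Lysosomal and membrane-traffic genes were below 0 in 9 of 10 measured cases (against 78% of the segment), with a median of -0.29. At least 1.5-fold lower were 2 (20%, against 30% of the segment and 6.76% of all measured genes). ZDHHC2, a palmitoyltransferase, read 1041 against 1612, 1.55-fold lower. PSD3, an exchange factor for ARF6, read 617 against 942, 1.53-fold lower. MTMR9, a pseudophosphatase of the myotubularin family, read 505 against 749, just short of 1.5-fold. ATP6V1B2, a subunit of the proton pump that acidifies lysosomes, read 1163 against 1532, and the ESCRT-I subunit VPS37A 675 against 876. CLN8, a membrane protein that helps lysosomal enzymes leave the endoplasmic reticulum, read 454 against 526.

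The remaining traffic genes were close to equal. REEP4, an endoplasmic reticulum protein that keeps membrane off mitotic chromosomes, read 656 against 725, and FHIP2B 512 against 544. Of the lysosomal hydrolases, the protease CTSB (cathepsin B) read 8724 against 8731. ASAH1, acid ceramidase, read 3165 against 3005 on the probe set that stands for it, while its 3 others were lower, with log2 ratios from -1.06 to -0.51, so its direction differed between probe sets.

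Genes of metabolism, transport and glycosylation had a median of -0.41 over 8 measured members. Below 0 were 6 (75%, against 78% of the segment). At least 1.5-fold lower were 3 (37.5%, against 30% of the segment and 6.76% of all measured genes). XKR6, a relative of lipid scramblases, read 92.7 against 194, 2.10-fold lower. CSGALNACT1, which starts chondroitin sulfate chains, read 20.6 against 137, at least 1.91-fold lower. NAT1, an arylamine N-acetyltransferase, read 851 against 1301, 1.53-fold lower. MICU3, a regulator of the mitochondrial calcium uniporter, read 157 against 230. AGPAT5, an acyltransferase of phospholipid synthesis, read 2990 against 3601, and PPP1R3B, which targets a phosphatase to glycogen, 243 against 288.

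The other 2 of this group were higher in CD90+ cells. MSRA, a methionine sulfoxide reductase, read 991 against 808. TUSC3, a subunit of the oligosaccharyltransferase that N-glycosylates proteins, read 320 against 276 (log2 ratio 0.21). Its 3 other measured probe sets had log2 ratios of -0.29 to -0.01, so TUSC3 had no settled direction.

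In the group of cytoskeletal, centrosomal and signalling regulators 5 of 8 measured members were below 0 (62.5%, against 78% of the segment). At least 1.5-fold lower were 3 (37.5%, against 30% of the segment and 6.76% of all measured genes). MFHAS1, a leucine-rich repeat GTPase, read 1518 against 2502, 1.65-fold lower, and its second probe set 1395 against 2505. TDRP is counted among the 3 only by its place on this list, and its role was not tested. DMTN (dematin, which bundles actin) read 117 against 177, 1.51-fold lower. SH2D4A, an SH2 adaptor, read 337 against 489. PCM1, the scaffold of centriolar satellites, read 2923 against 3377. ARHGEF10 read 932 against 907, and MTUS1, a microtubule-associated protein, 4040 against 4021, neither far from equal. PRAG1, a pseudokinase, read 1866 against 1565, a log2 ratio of 0.25 in a stretch of lower genes. The group's median was -0.37.

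Both measured ubiquitin ligase genes were lower. LONRF1, a RING and LON domain protein, read 372 against 715, 1.92-fold lower, and its second probe set 63.3 against 134. FBXO25 was 1.73-fold lower. Of 3 measured transcription regulators, ZNF596 was 1.81-fold lower, HR (a histone demethylase and nuclear receptor corepressor of skin) read 462 against 504, and GATA4, an endodermal and cardiac factor, 107 against 72.0. C8orf74, which is on none of the role lists, read 83.3 against 93.9.

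Secreted proteins and receptors were dim. Of 6 measured members 0 were beyond 1.5-fold, and the median was -0.13. BMP1, the protease that cleaves procollagen C-propeptides, read 178 against 258 (log2 ratio -0.53), although a second probe set read 103 against 83.8. SFTPC, known as a lung surfactant protein, read 213 against 201. The others each had one array under the floor: FGF17 at 35.3 against 82.9, FGL1 at 42.0 against 92.8, FAM167A at 57.4 against 74.4 and CSMD1 at 79.0 against 30.6. FAM167A is counted here only by its place on the list, and its role was not tested. DEFB1, the constitutive beta-defensin of epithelia, read 12.98 in CD90+ and 115 in CD90- cells, at least 1.61-fold lower. It was the single measured defensin gene. DEFA4, DEFA5, DEFA6 and SPAG11A were under the floor. Another 15 probe sets were annotated to several genes that include a member, and 2 of them reached the floor.

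Several genes for which the arm is best known could not be compared. DLC1 read 44.8 against 54.5 on the brightest of 5 probe sets, all under the floor. LZTS1 read 47.0 against 39.2, and 1 cross-hybridising probe set of its 7 reached the floor. The angiogenic ligand ANGPT2 read 14.7 against 33.5, the lipase LPL 31.0 against 44.3, the scavenger receptor MSR1 57.5 against 42.0 and the arginine transporter SLC7A2 50.5 against 50.7. Also under the floor were DLGAP2, KBTBD11, MYOM2, ZNF705G, PRSS55, RP1L1, SOX7, BLK, TRMT9B, C8orf48, SGCZ, FGF20, MTMR7, PDGFRL, NAT2, SLC18A1, GFRA2, DOK2, LGI3 and PHYHIP. At such signals a difference was not detectable.

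**Figure D3:**
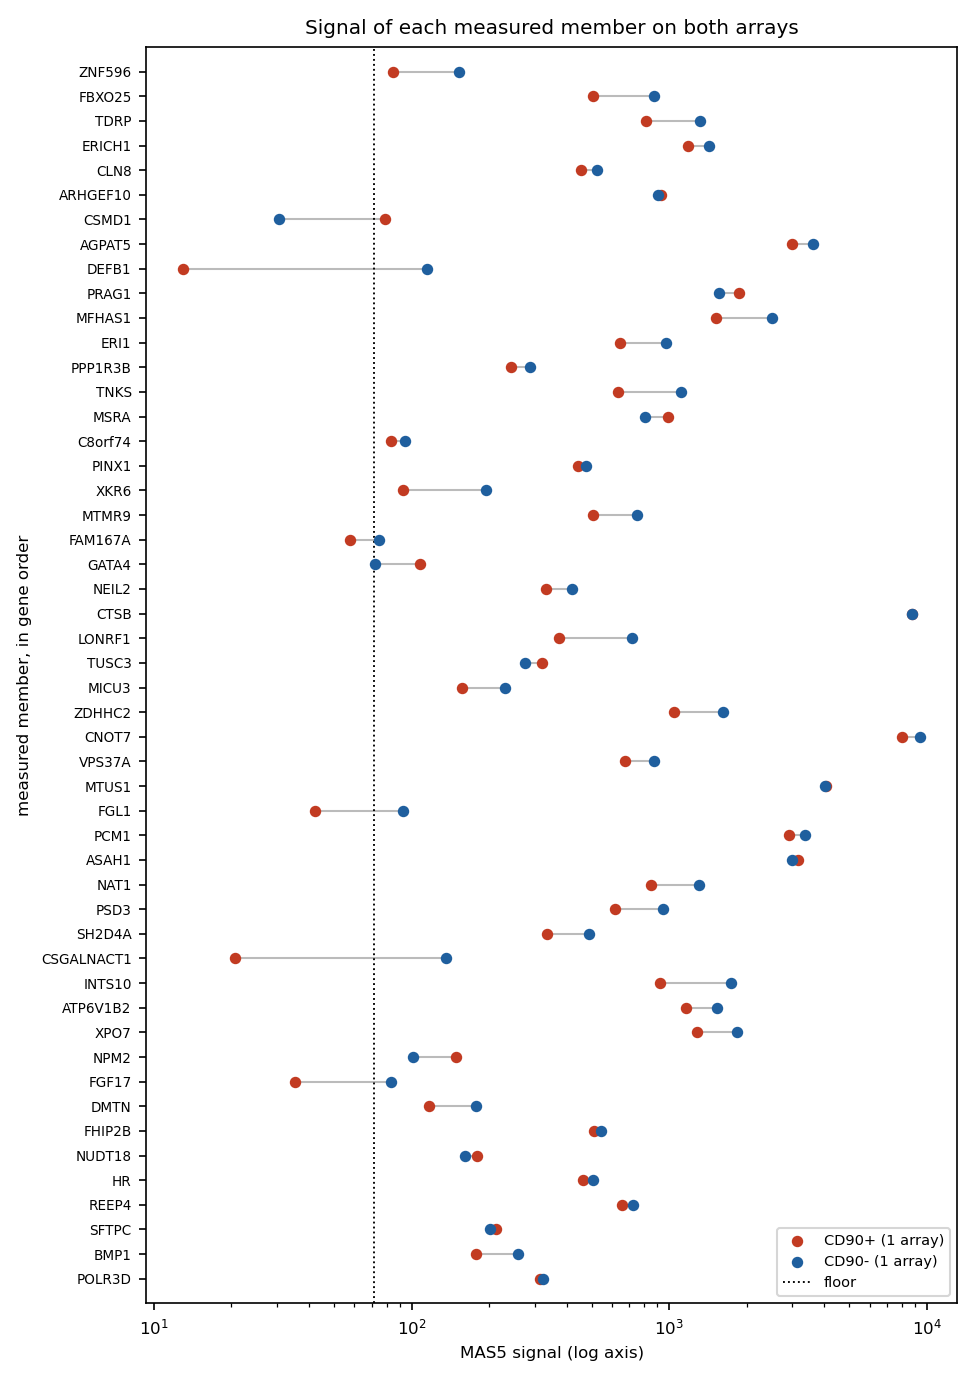
MAS5 signal of each measured member in CD90+ (red) and CD90- (blue) cells, 1 array each, on a log axis with genes in chromosomal order. The blue point lies to the right in 39 of 50 members, and the 6 with a point left of the dotted floor of 71.6 are lower bounds.

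A few genes departed from their neighbours. A member was counted when its log2 ratio differed by at least 1.5-fold from the median of its 10 nearest measured members. This held for 5 of 50 (10%). The share was 13.2% when every measured gene, coding or not, was set against its 10 nearest on the same chromosome. The neighbours there were not limited to protein-coding genes, so the shares are only roughly comparable. On the high side stood 3 members, where the background was 7.26%: NPM2, 1.02 above a local median of -0.46 on the log2 scale, GATA4, 0.83 above -0.25, and MSRA, 0.70 above -0.41. On the low side were 2, against a background of 5.9%: XKR6, 0.93 below its local median of -0.14, and LONRF1, 0.66 below -0.28.

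These 5 differ in how well they were read. GATA4 and NPM2 had signals at or below 148 on a single measured probe set. XKR6 departed on 1 of 3. The others were at -0.16, on a cross-hybridising probe set, and at -0.06, a lower bound (65.4 against 74.9). When the floor was raised to the 75th percentile, GATA4, NPM2 and XKR6 were not measured, and MSRA, LONRF1, TNKS and INTS10 departed. MSRA, with a single measured probe set, no longer departed against the 20 nearest or all other members, with the floor at the 25th percentile, or when the least changed probe set stood for each gene. LONRF1, at -0.94, was also lower on a second probe set, where CD90+ cells read 63.3, under the floor. The -0.90 there is therefore a lower bound and not a repeat of the ratio. LONRF1 did not depart by the mean over probe sets. XKR6 did not depart by that mean or by the least changed probe set. Just short of the threshold were ZNF596, CSMD1 and ASAH1, which differed from their local medians by -0.58, 0.58 and 0.53. Close behind were FBXO25 (-0.52), ARHGEF10 (0.52), PRAG1 (0.51) and MFHAS1 (-0.51). The ratio of CSMD1 is a lower bound, and ASAH1 was lower in CD90+ cells on its other measured probe sets.

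Different probe sets of a gene read the same RNA and are no repeat. The segment was selected on these same arrays, so agreement between probe sets is a description and no separate support. Some values below are lower bounds with a CD90+ signal under the floor, as on the second probe sets of LONRF1 and FHIP2B. In 24 members at least 2 probe sets were measured, and their log2 ratios had a pooled SD of 0.27, against 0.31 over 6188 genes of the array. In 14 of the 24 all probe sets had one sign, against 54.2% of all genes with 2 or more measured probe sets. All 14 were lower in CD90+ cells, where 27.6% of those genes were. TDRP gave -0.67, -0.69 and -0.72, CNOT7 -0.24, -0.35, -0.42 and -0.49, and PSD3 -0.61 and -0.66. The 57 measured probe sets that did not stand for a gene had a median of -0.25, with 45 below 0 and 8 at least 1.5-fold lower, against 50.2% and 7.17% of all measured probe sets with one symbol. CTSB stayed near 0 on 5 probe sets, from -0.13 to 0.21. ERICH1, on 7 probe sets, and PCM1, on 6, had ratios of both signs and none beyond 1.5-fold.

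**Figure D4:**
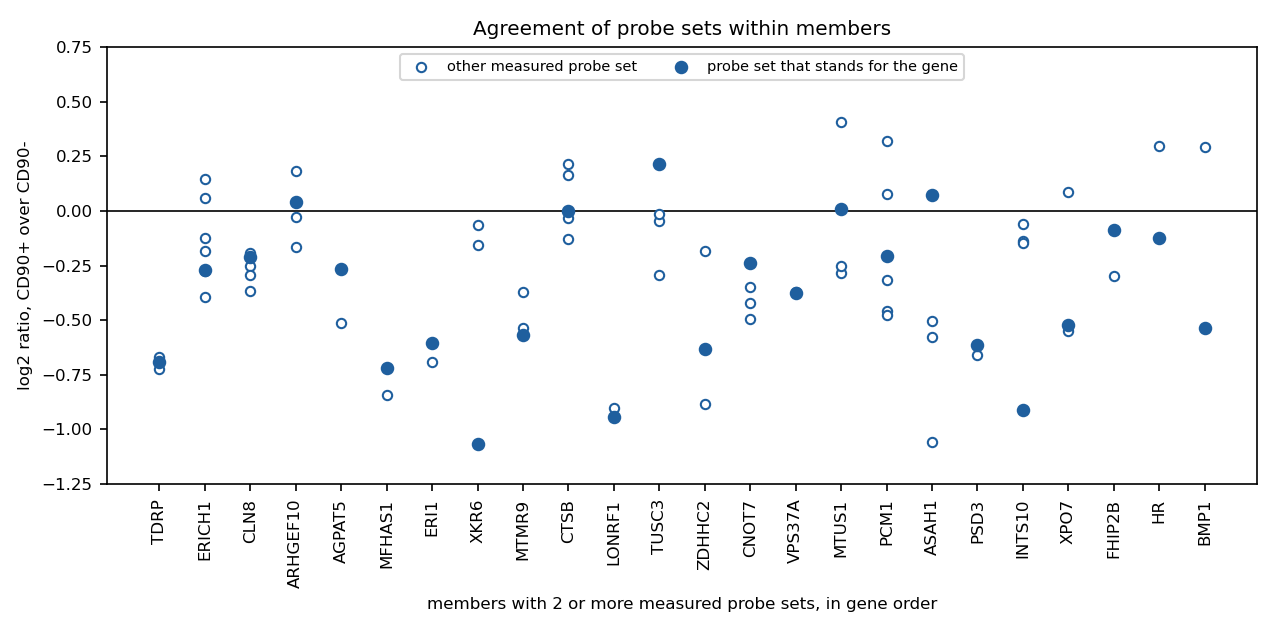
Log2 ratios of all measured probe sets of the 24 members with at least 2, in gene order; filled points stand for the gene. In 14 members every point lies below 0. The others, ERICH1, ARHGEF10, CTSB, TUSC3, MTUS1, PCM1, ASAH1, XPO7, HR and BMP1, have points on both sides.

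The other genes of the members' complexes, which lie mostly on other chromosomes, were mostly near 0. The Integrator list had 15 measured genes, 0 beyond 1.5-fold and a median of -0.0021, and INTS13 and INTS14, which form a module with INTS10, read 4014 against 3249 and 962 against 963. INTS9 and INTS8, on chromosome 8 outside the segment, had log2 ratios of -0.05 and -0.03. Of the V-ATPase list 15 were measured, 0 were beyond 1.5-fold and the median was 0.19. ATP6V1A, which pairs with ATP6V1B2 in the catalytic ring, read 5794 against 5283, and ATP6V1B1, the alternative B subunit, was under the floor. In the telomere and tankyrase list 0 of 8 were beyond 1.5-fold, the median was 0.06, and the paralog TNKS2 read 949 against 919.

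CCR4-NOT had 12 measured genes, a median of -0.06, CNOT11 1.56-fold lower (1656 against 2583) and CNOT3 1.54-fold higher (240 against 155). CNOT8, the paralog of CNOT7, read 786 against 824. RNA polymerase III had 11 measured with 0 beyond 1.5-fold and a median of 0.02, POLR3E at 1742 against 1608 and POLR3A at 565 against 676. The oligosaccharyltransferase list had 11, 0 beyond 1.5-fold and a median of 0.02, and the TUSC3 paralog MAGT1 read 3867 against 3875 and STT3B 6161 against 7218. Lysosomal hydrolases and membrane proteins had 21, 0 beyond 1.5-fold and a median of 0.03, with CTSL at 2713 against 2359 and CTSD at 196 against 178.

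ESCRT-I had the lowest median of the 9 partner lists, -0.24 over 8 measured genes with 6 below 0, and VPS37A at -0.38 lay within its range of -0.44 to 0.33. TSG101 read 3026 against 3529 and VPS28 1388 against 1364. Centriolar satellite genes had a median of -0.09 over 9, with PIBF1 1.502-fold lower (294 against 441).

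**Figure D5:**
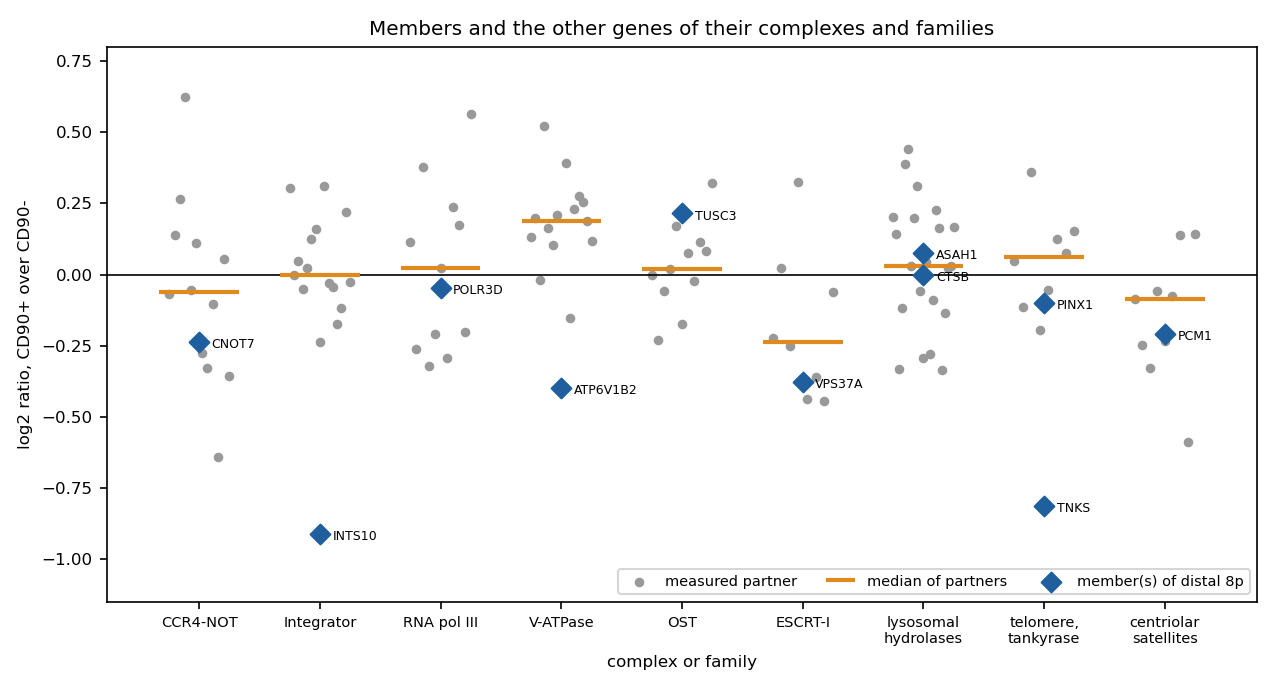
Log2 ratios of measured members (blue diamonds) and of the other measured genes of their complexes or families (grey points, orange median). INTS10 at -0.91, TNKS at -0.81 and ATP6V1B2 at -0.40 lie below every point of their own lists, ATP6V1B2 only just (ATP6V0A1 is at -0.39). Of the dim probe sets of INTS10, those at -0.15 and -0.14 would lie among its list, and the one at -0.06 is a lower bound. CNOT7, TUSC3, VPS37A, CTSB, ASAH1, PINX1, PCM1 and POLR3D lie among theirs on the probe sets that stand for them. The other measured probe sets of ASAH1, at -1.06 to -0.51, would lie below its list, whose lowest gene is at -0.34.

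Transcripts of the segment that are not protein-coding are not members, but they lie in a segment selected on these same arrays. They were lower as well, which is a description and no separate support. All 8 measured had ratios below 0, where 49.6% of the 920 measured genes of that kind did, and 4 were at least 1.5-fold lower, against 8.80% of them. Their median was -0.46. LOC729732 read 113 against 310, a log2 ratio of -1.45, and FAM86B2-DT 342 against 717, a ratio of -1.07. TDH-AS1 read 111 against 189 and PPP1R3B-DT 149 against 226. Nearer to 0 were FAM86B3P (129 against 162), MCPH1-DT (223 against 279), MCPH1-AS1 (111 against 130) and CLN8-AS1 (548 against 587). Both transcripts named for a measured coding gene had the sign of that gene, CLN8-AS1 at -0.10 beside CLN8 at -0.21 and PPP1R3B-DT at -0.60 beside PPP1R3B at -0.25.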

How the data were processed

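Total RNA of 1 CD90+ and 1 CD90- fraction was read on 1 array each; groups follow the cell population label. The authors deposited linear signal intensity values, made with MAS5 per the submitters' processing notes; no settings or version were stated. The table has 54675 probe sets, of which 62 controls were left out. Names come from the platform annotation, matched by gene identifier to RefSeq GRCh38.p14, used for names and gene order only. Signals under the floor (71.6, the 50th percentile) were set to it. The probe set with the highest mean log2 signal stood for a gene, the _x_at class only where a gene had no other. Members, role lists, partner lists and the rule for named genes (every measured member, the 6 measured genes past POLR3D, and of each partner list up to 2 beyond 1.5-fold each way or else the 2 nearest in function) were chosen with earlier results of these data known. Genes named beyond it were chosen after their values were seen. The scripts were tested on simulated data. No test was possible with 1 array per group, and the number of arrays limits the precision. Software was Python 3.11.15 with statsmodels 0.14.6, pandas 2.3.3 and numpy 2.4.6. Since MAS5 subtracts the mismatch probes, dim probe sets give noisy ratios. One list is not reported here.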

Additional observations from a re-analysis of the deposited data

How the results depend on the processing

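No paired analysis was possible because each population had 1 array. The median of the members was below 0 under all 11 alternatives, from -0.37 without the _x_at, _s_at and _a_at classes to -0.19 by the least changed probe set, and 10 to 20 members were at least 1.5-fold lower. No member beyond 1.5-fold changed sign under any of them. Of the 15 lower members, XKR6, ZDHHC2 and INTS10 were within 1.5-fold by the mean over probe sets and by the least changed one, ERI1, PSD3 and DMTN with loess, ERI1 and DMTN with quantile normalization, and INTS10 without those classes. The floor moved the small counts. At least 1.5-fold higher were 1 member without a floor and 6 with it at the 25th percentile, at least 2-fold lower 5 and 5, and departing from neighbours 11 and 26. At least 2-fold lower were 0 with the floor at the 75th percentile, by the mean over probe sets and by the least changed one. Against the 20 nearest, or all other, members 7 departed, MSRA not among them. The cause of these shifts was not tested. The 30 members under the floor allow no comparison.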
